A study of Homo sapiens with 15 samples.

Results

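The mRNAs of proteasome and CCT chaperonin subunits were followed from U2OS cytosolic extract into the material that pelleted out of it. They were the protein-coding genes whose symbol is PSMA, PSMB, PSMC, PSMD, PSME, PSMF or PSMG followed by a number, together with TCP1, CCT2, CCT3, CCT4, CCT5, CCT6A, CCT7 and CCT8. Of 56 such genes, 54 reached 10 counts in 2 or more replicates of every one of the 5 conditions, 46 of the proteasome and 8 of the chaperonin, among 16612 genes that passed this filter and 57500 in the files. The 2 left out were PSMA8, a testis-specific subunit with at most 2 counts in a library, and PSMB11, a thymus-specific subunit with at most 1.

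U2OS is a human osteosarcoma line, labelled wild type, from which cytosolic extract was made. The paper calls the sequenced condensates YFP-G3BP1 condensates, so the cells may have carried G3BP1, a stress granule protein, with a fluorescent tag. The input group was extract that was not pelleted, and the other 4 groups were pellets from extract held for 2 h at 37 °C and then centrifuged: mock extract without an added agent, extract with 250 nM dsRNA, extract with 2 µg/ml silvestrol, and extract with 1% PEG. Double-stranded RNA activates the kinase PKR, silvestrol blocks the helicase eIF4A, both of which halt translation initiation, and polyethylene glycol (PEG) crowds the solution. Each group held 3 biological replicates, sequenced after poly(A) selection, and all 15 libraries came from 1 cell line and from extract rather than living cells. The pellet is defined by sedimentation, so that condensates and any other sedimenting RNA cannot be told apart in it. No incubation time is given for the input, so pelleting and the 2 h at 37 °C cannot be told apart in comparisons with it. Total counts ran from 15341973 to 46939993, lowest in PEG. Of 6 mesenchymal and bone markers, VIM, COL1A1, SPARC, RUNX2 and CD44 passed the filter, COL1A2 had at most 10 counts, and of 6 markers of other cell types only EPCAM passed, at 5.16 to 14.3 CPM before TMM.

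The proteasome degrades proteins tagged with ubiquitin. Its 20S core is a barrel of stacked alpha and beta rings, with the proteolytic sites on beta subunits inside, and its 19S regulatory particle has an ATPase ring and further base subunits that bind and unfold substrates and a lid that removes ubiquitin. Other activators can cap the core in place of the 19S particle, and dedicated chaperones help the subunits to assemble. CCT, also called TRiC, is a double ring of 8 related subunits that folds actin, tubulin and other cytosolic proteins. The mRNAs of such complexes are abundant and translated in most cells. Stress granules hold untranslated mRNAs, and sedimenting RNA can also include polysomes and other large complexes.

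Levels are given as CPM, the counts of a gene over its library's total on a common scale. The totals were first scaled with TMM, a normalisation that sets aside genes with extreme ratios. Differences are log2 fold changes with their SE from edgeR's quasi-likelihood test, and a gene is called higher or lower where the Benjamini-Hochberg adjusted p over all 16612 genes is below 0.05. A level is relative: it is a share of each library's RNA, so a lower level in a pellet is a smaller share of that pellet and not an absolute loss.

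Proteasome and CCT mRNAs formed a smaller share of the mock, dsRNA and silvestrol pellets than of the extract, and a larger share of the PEG pellets. Their summed level was 12633.9, 8753.0 and 8949.6 CPM in the 3 input libraries. It was 8417.8, 6157.0 and 5797.1 CPM in mock pellets, 7477.9, 5564.7 and 5579.5 CPM with dsRNA, and 7688.8, 6039.1 and 6180.6 CPM with silvestrol. With PEG it was 15956.1, 16423.0 and 16620.5 CPM. Every PEG library lay above every input library, and every library of the other pellets lay below every input library. Replicate 1 had the highest sum of its group in all groups but PEG. Taken against the input of the same replicate number, the sums were 0.666, 0.703 and 0.648 of input in mock, 0.592, 0.636 and 0.623 with dsRNA, and 0.609, 0.690 and 0.691 with silvestrol. With PEG they were 1.26, 1.88 and 1.86 of input, so the rise in replicate 1 was the smallest of the 3.

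**Figure D1:**
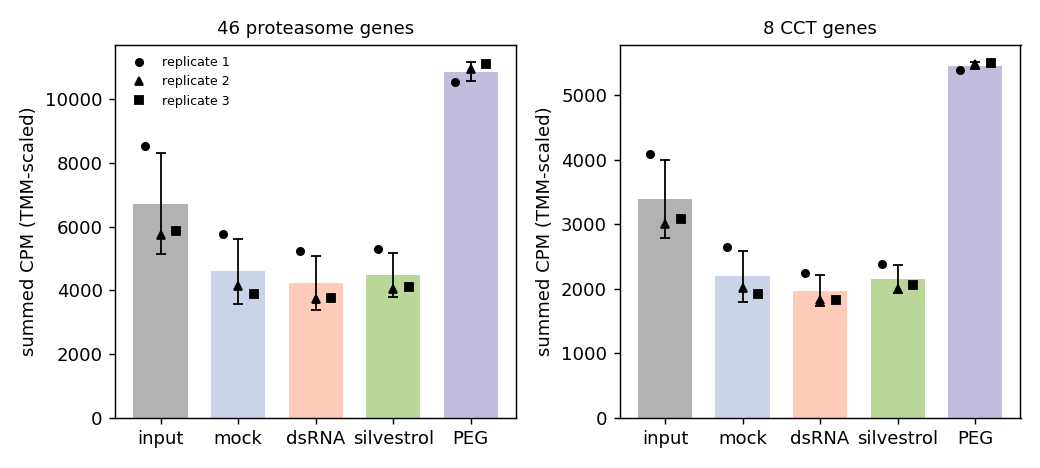
Summed level of the 46 proteasome genes (left) and the 8 CCT genes (right) in CPM on TMM-scaled library sizes, with bars for the group mean, whiskers for the SD (n = 3) and a symbol for each replicate. The PEG libraries stand above all input libraries in both panels, the mock, dsRNA and silvestrol libraries below them apart from mock replicate 1 in the left panel (5768.9 CPM, with the lowest input at 5743.5), and replicate 1 is the highest library of every group except PEG.

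The proteasome genes alone averaged 6720 ± 1582 CPM in input, 4596 ± 1025 in mock pellets and 10876 ± 288 in PEG pellets (SD, n = 3). The 8 CCT genes averaged 3392 ± 604 CPM in input, 2195 ± 396 in mock pellets and 5458 ± 53.8 in PEG pellets. The ratio of the PEG mean to the input mean was 1.62 for the proteasome genes and 1.61 for the CCT genes.

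Against input, 27 of the 54 members were called lower in mock pellets and 0 higher, where 15.8% of all genes tested were lower and 17.6% higher. With the replicate number as a block, 47 were lower and 1 was higher, where 30.1% of all genes tested were lower and 32.5% higher, and the 1 higher was PSMA5. With dsRNA 39 were lower and 0 higher, against 19.6% and 21.1% of all genes. With silvestrol 40 were lower and 0 higher, against 18.1% and 19.4%. The median log2 fold change of the members was -0.66 in mock, -0.75 with dsRNA and -0.71 with silvestrol. The median of all genes tested was within 0.01 of 0 in each of these, near where TMM scaling tends to place it. With library size as the only scaling the members' medians were -0.60, -0.71 and -0.66, and those of all genes 0.058, 0.043 and 0.052. The 3 comparisons use the same input libraries and are not independent of each other. The 3 pellet libraries all lay below the 3 input libraries for 38 members in mock, 44 with dsRNA and 44 with silvestrol, where 26.0%, 28.9% and 27.8% of all genes did so. Compared within replicate numbers, 48, 49 and 50 members were lower in all 3 pairs, where 39.4%, 40.3% and 40.2% of all genes were. The counts of calls leaned on single pellet libraries. In mock it was 42 without replicate 1, 9 without replicate 2 and 8 without replicate 3, with dsRNA 22 without replicate 2 or 3, and with silvestrol 19 without replicate 2 and 20 without replicate 3. Calls that held whichever 1 library was left out numbered 8 in mock, 22 with dsRNA and 19 with silvestrol. The shares of all genes with a library left out were not taken, here or below. A loss of calls particular to the members therefore cannot be told from a general loss with fewer libraries.

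The PEG pellets went the other way. Against input, 38 members were called higher and 2 lower, where 25.5% of all genes tested were higher and 25.9% lower, and the median of the members was 0.81. With the replicate block 41 were higher and 3 lower than input, where 4656 of the 16612 genes were higher and 4624 lower. The 3 PEG libraries lay above the 3 inputs for 39 members, where 28.7% of all genes did so. Against mock pellets, which had no added agent, 49 were called higher and 1 lower, where 31.3% and 32.2% of all genes were called, with a median of 1.44. All 50 of these calls held whichever 1 library was left out, and 34 of the 40 against input did. PEG libraries all lay above the mock libraries for 49 members, against 32.0% of all genes. With the block 50 were higher and 1 lower than in mock, where 5598 and 5716 of the 16612 genes were. The scale of these values depended on the normalisation: with library size as the only scaling the median of all genes fell to -0.35 against input and -0.49 against mock. On that scale 29 members were higher and 4 lower than input, with a median of 0.48, where 14.1% of all genes were higher and 41.5% lower. Against mock 48 were higher and 2 lower, with a median of 0.98, where 18.8% and 49.8% of all genes were.

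A total of 21 members were called lower than input in mock, dsRNA and silvestrol pellets and higher than input in PEG pellets, where 5.69% of all genes tested met the same condition. They were 19 proteasome genes and the chaperonin genes CCT5 and CCT7. With the replicate block there were 35, where 9.53% of all genes did. Lower in all 3 of mock, dsRNA and silvestrol were 27 members, against 14.2% of all genes, and in none of them 13, against 78.1%.

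**Figure D2:**
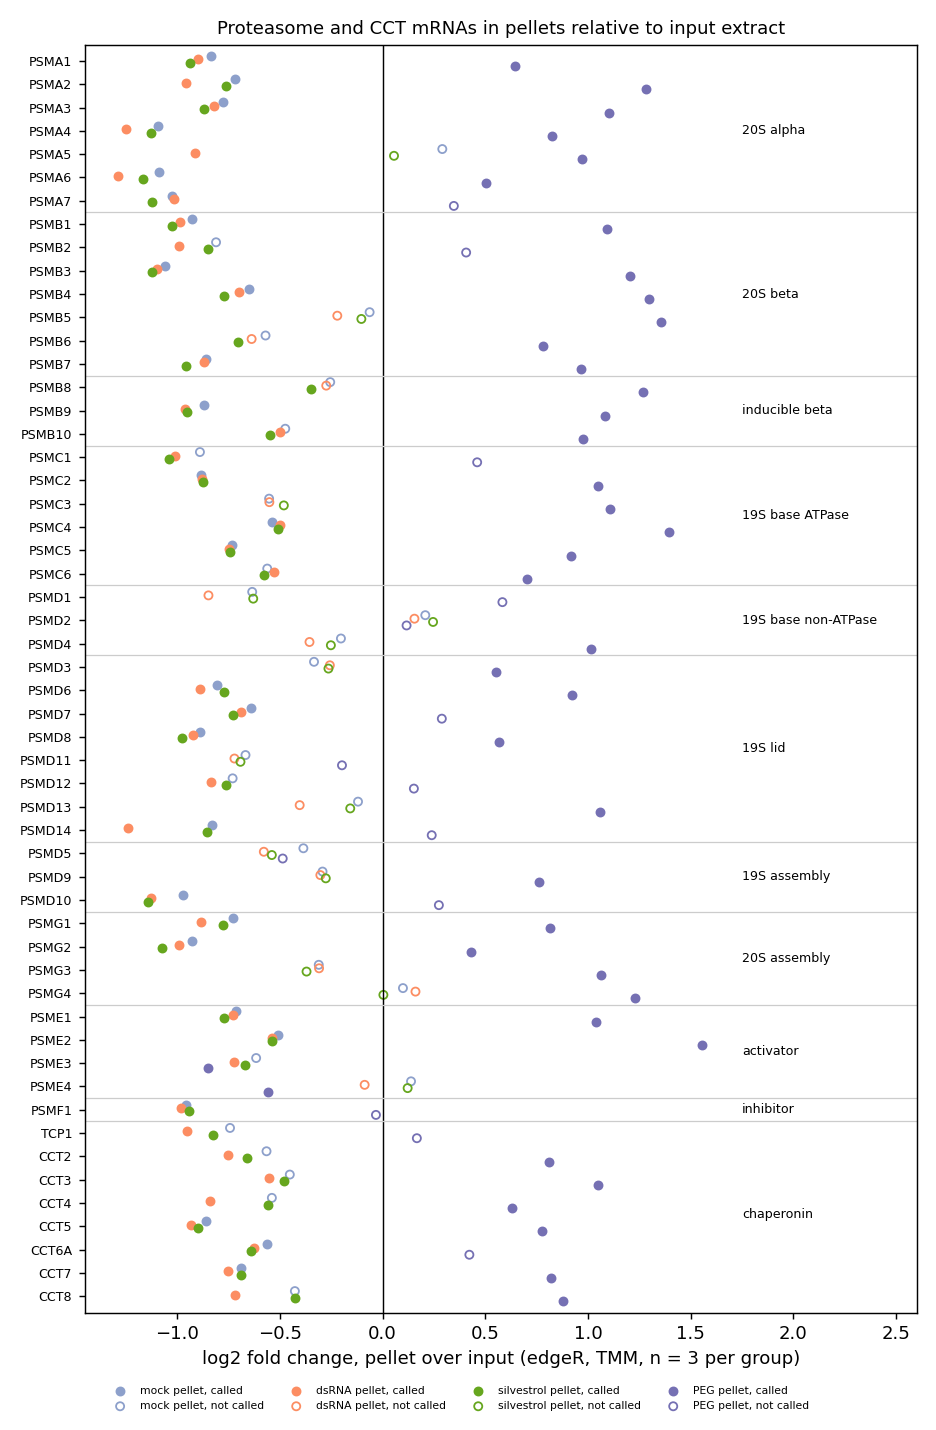
Log2 fold change of each of the 54 members in each kind of pellet over input (edgeR, n = 3 per group), grouped by role, with filled points for members called at an adjusted p below 0.05 and open points for the others. Most mock, dsRNA and silvestrol points lie left of 0 and most PEG points right of it, and PSME3 and PSME4 are the called members left of 0 with PEG.

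The 20S alpha subunits, which form the outer rings and the gate of the core, were lower in most pellets without PEG. Of 7 measured, 6 were called lower in mock, 7 with dsRNA and 6 with silvestrol, and 6 were called higher with PEG. PSMA7 was the most abundant of them in input, at 681, 366 and 383 CPM, and stood at 311, 197 and 180 CPM in mock pellets and 653, 597 and 527 CPM in PEG pellets. All mock libraries lay below all inputs (-1.02, SE 0.302, edgeR adjusted p = 0.0359), whereas the PEG libraries overlapped the inputs (0.35, SE 0.254, edgeR adjusted p = 0.278).

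PSMA4 and PSMA6 had the lowest log2 fold changes of all members in mock pellets, both at -1.09. PSMA6 read 74.1, 53.0 and 56.6 CPM in input and 33.9, 24.7 and 25.5 CPM in mock, below input in every replicate pair, and 81.9, 89.1 and 81.7 CPM with PEG. Its differences from input were -1.29 with dsRNA (edgeR adjusted p = 0.00244) and -1.17 with silvestrol (edgeR adjusted p = 0.00264), the lowest of the 54 in both. PSMA4 fell by 1.25 on the log2 scale with dsRNA and by 1.13 with silvestrol. PSMA2, the least abundant alpha subunit at 9.49 to 14.5 CPM in input, had one of the larger differences with PEG, 1.28 against input.

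The 7 constitutive beta subunits include the 3 that carry the proteolytic sites, PSMB5, PSMB6 and PSMB7. Of the 7, 4 were lower in mock, 5 with dsRNA and 6 with silvestrol, and 6 were higher with PEG. The block gave 6 lower in each of the pellets without PEG. PSMB4, the most abundant, read 292, 238 and 244 CPM in input, 192, 154 and 135 CPM in mock, and 577, 650 and 624 CPM with PEG. Its log2 fold changes were -0.65 in mock (SE 0.161, edgeR adjusted p = 0.0196) and 1.30 with PEG (SE 0.144, edgeR adjusted p = 0.000329). PSMB3, a structural subunit with the shortest coding transcript of the members, read 152, 92.5 and 88.9 CPM in input, 62.9, 47.8 and 45.7 CPM in mock, and 226, 253 and 271 CPM with PEG. Its difference between PEG and mock pellets, 2.33 (SE 0.162, edgeR adjusted p = 5.97e-06), a 5.03-fold difference, was the highest of the 54. PSMB1 followed among beta subunits, at 2.08.

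PSMB5, which carries the chymotrypsin-like site that proteasome inhibitors bind, was an exception without PEG. It read 116, 110 and 113 CPM in input and 119, 102 and 95.4 CPM in mock pellets, and its log2 fold changes of -0.06 in mock, -0.22 with dsRNA and -0.10 with silvestrol were not called. With PEG it read 271, 291 and 281 CPM, and its difference from input was 1.36 (SE 0.113, edgeR adjusted p = 0.000218).

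The 3 inducible beta subunits measured replace constitutive ones in the immunoproteasome. PSMB8, the most abundant of them, read 56.1, 59.96 and 60.97 CPM in input, 49.9, 49.0 and 45.95 CPM in mock pellets, and 127, 152 and 134 CPM with PEG. It was not called in mock (-0.25, edgeR adjusted p = 0.0822; 0.0140 with the replicate block) and was higher with PEG (1.27, edgeR adjusted p = 0.000244). PSMB9 was lower in mock pellets by 0.87 on the log2 scale and PSMB10 was at -0.47 there, which did not pass (edgeR adjusted p = 0.0530; 0.00226 with the block). An antisense gene overlaps 21.2% of the exon bases of PSMB8, and another gene on the same strand 34.8% of those of PSMB10. All 3 were lower with silvestrol and higher with PEG, and with the block all 3 were lower in mock and with dsRNA.

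The 6 ATPases of the 19S base, PSMC1 to PSMC6, form the ring that unfolds substrates. In mock pellets 3 were lower, with dsRNA 5 and with silvestrol 5, and 5 were higher with PEG. All 6 were lower in each of these, and higher with PEG, once the replicate number was a block. PSMC5, the most abundant, read 498, 324 and 347 CPM in input, 287, 205 and 194 CPM in mock, and 671, 717 and 766 CPM with PEG. Its log2 fold changes were -0.73 in mock (SE 0.218, edgeR adjusted p = 0.0368) and 0.92 with PEG (SE 0.193, edgeR adjusted p = 0.00422). PSMC4 was 1.39 higher with PEG than in input (SE 0.134, edgeR adjusted p = 0.000255). PSMC1 was not called in mock pellets or with PEG (edgeR adjusted p = 0.0649 and 0.137; 1.88e-08 and 0.0372 with the block). Of its annotated exon bases 75.8% overlap NRDE2 on the opposite strand, so its reads cannot be assigned with certainty while the strand setting is not known.

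The 3 non-ATPase base subunits PSMD1, PSMD2 and PSMD4, which receive ubiquitin and ubiquitin-like domains, were not called in mock, dsRNA or silvestrol pellets. With the replicate block PSMD1 was lower in all 3 of them and PSMD4 with dsRNA (edgeR adjusted p = 0.00864). PSMD2 was the most abundant member of the base and varied more between replicates than between groups. It read 928, 548 and 581 CPM in input, 1100.0, 615 and 604 CPM in mock, 1088, 565 and 574 CPM with dsRNA, 1121, 609 and 658 CPM with silvestrol, and 798, 699 and 678 CPM with PEG. Replicate 1 was the highest library in every group. Its difference from input was 0.21 in mock (SE 0.296, edgeR adjusted p = 0.619), and it was -0.14 without mock replicate 1. Between PEG and mock pellets it was -0.03 (edgeR adjusted p = 0.930), and without mock replicate 1 it was 0.34 and called higher. PSMD4, a ubiquitin receptor, was 1.01 higher with PEG than in input (edgeR adjusted p = 0.00132).

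The lid removes ubiquitin chains through the metalloprotease PSMD14. Of its 8 measured subunits, 4 were lower in mock, 5 with dsRNA and 5 with silvestrol, and 4 were higher with PEG. The block gave 7 lower in mock, 8 with dsRNA and 7 with silvestrol. PSMD8, the most abundant, read 259, 227 and 239 CPM in input, 143, 128 and 112 CPM in mock, and 320, 355 and 366 CPM with PEG. It was lower in mock (-0.89, SE 0.129, edgeR adjusted p = 0.00412) and higher with PEG (0.57, SE 0.127, edgeR adjusted p = 0.00577). PSMD14 read 130, 84.1 and 88.4 CPM in input, 75.8, 48.1 and 41.9 CPM in mock, and 49.4, 36.2 and 38.5 CPM with dsRNA, and its difference from input with dsRNA was -1.24 (edgeR adjusted p = 0.00357). PSMD11 was the lid subunit with the lowest PEG value, -0.20 against input, and it was the only lid subunit not called between PEG and mock (0.54, edgeR adjusted p = 0.0508; 0.00280 with the block). PSMD13 differed little from input in mock, at -0.12, and was 1.06 higher with PEG (edgeR adjusted p = 0.000702).

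Chaperones that assemble the complexes split. PSMD10, which binds the ATPase PSMC4 during base assembly, was lower in mock pellets (-0.97, SE 0.138, edgeR adjusted p = 0.00403), at 26.4, 21.0 and 22.5 CPM against 53.0, 44.4 and 43.2 CPM in input. It was not called with PEG, at 52.4, 56.0 and 56.6 CPM (0.27, edgeR adjusted p = 0.113). PSMD5, another base chaperone, read 53.2, 33.5 and 32.1 CPM in input and 32.8, 27.3 and 22.4 CPM with PEG, where its -0.49 was not called (edgeR adjusted p = 0.115) and was lower with the replicate block (adjusted p = 0.0173). Between PEG and mock it was -0.03 and changed sign with a GC correction. The 4 chaperones of 20S assembly, PSMG1 to PSMG4, were all higher with PEG, and PSMG1 and PSMG2 were lower in mock. PSMG3 and the base chaperones PSMD5 and PSMD9 were lower there too with the replicate block. PSMG2 read 113, 103 and 103 CPM in input, 55.5, 55.7 and 52.0 CPM in mock, and 118, 150 and 148 CPM with PEG. Its difference in mock was -0.93 (SE 0.101, edgeR adjusted p = 0.00358). PSMG4, at 13.6, 17.4 and 14.97 CPM in input, read 14.01, 17.1 and 17.0 CPM in mock and 29.7, 36.4 and 38.1 CPM with PEG.

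The activators that cap the 20S core did not move together. PSME1 and PSME2, which together form the interferon-inducible PA28 ring, were lower in mock by 0.71 and 0.51 on the log2 scale and higher with PEG by 1.04 and 1.56. PSME2 read 89.6, 94.9 and 100.1 CPM in input, 68.2, 67.8 and 59.3 CPM in mock, and 237, 282 and 292 CPM with PEG, the highest PEG log2 fold change of the 54 (SE 0.125, edgeR adjusted p = 0.000217), a 2.94-fold difference. PSME3, the nuclear PA28 gamma, read 132, 95.04 and 95.8 CPM in input, 86.8, 58.7 and 59.9 CPM in mock, and 60.9, 57.7 and 55.4 CPM with PEG. It was 0.85 lower with PEG than in input on the log2 scale (SE 0.166, edgeR adjusted p = 0.00300), and did not pass in mock (-0.62, edgeR adjusted p = 0.0501; 1.53e-06 with the block).

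PSME4, which encodes the large single-chain activator PA200, ran against most of the members. It read 185, 143 and 144 CPM in input, 201, 158 and 148 CPM in mock, 139, 155 and 138 CPM with dsRNA, 202, 158 and 142 CPM with silvestrol, and 117, 98.4 and 95.9 CPM with PEG. The mock, dsRNA and silvestrol libraries overlapped the inputs, and the PEG libraries lay below all others. It was lower with PEG than in input (-0.56, SE 0.159, edgeR adjusted p = 0.0170) and was the only member called lower with PEG than in mock (-0.63, SE 0.156, edgeR adjusted p = 0.00536). PSMF1, an inhibitor of the 20S core, was lower in mock pellets, at 65.95, 60.3 and 60.9 CPM against 140, 116 and 117 CPM in input (-0.96, SE 0.119, edgeR adjusted p = 0.00358). With PEG it read 114, 127 and 113 CPM and overlapped the inputs (-0.03, edgeR adjusted p = 0.858; 0.03 with a GC correction).

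**Figure D3:**
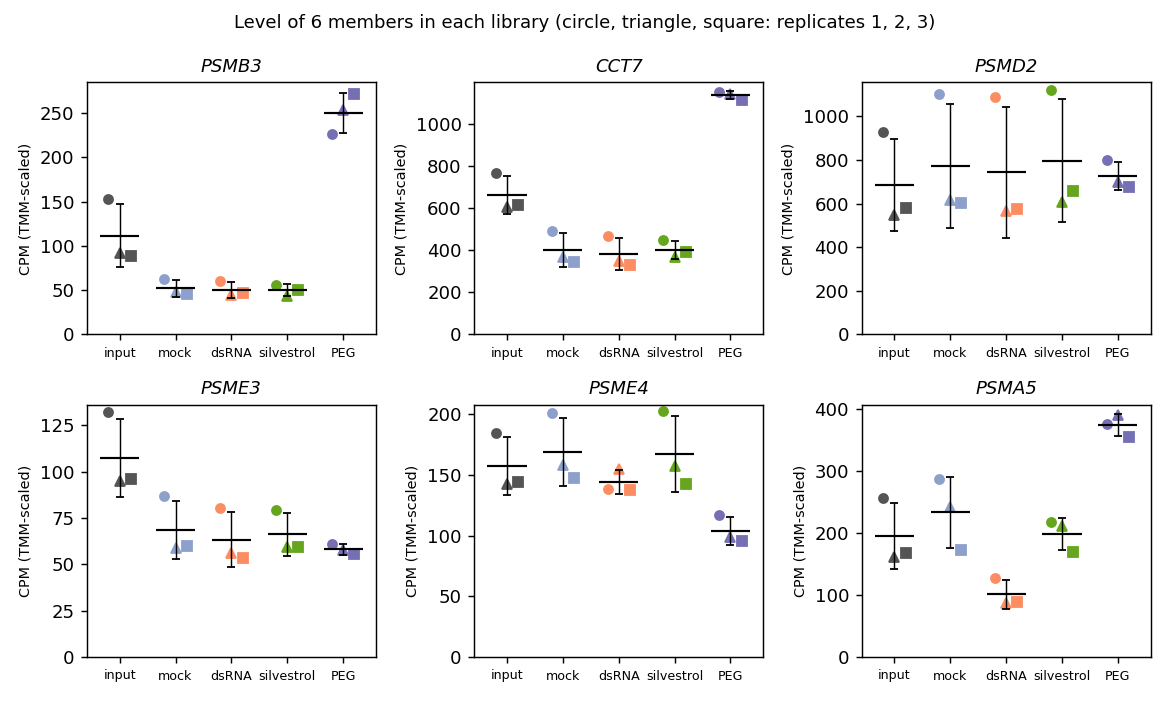
Level of PSMB3, CCT7, PSMD2, PSME3, PSME4 and PSMA5 in each of the 15 libraries in CPM on TMM-scaled library sizes, with horizontal lines for the group means and whiskers for the SD (n = 3). PSMB3 and CCT7 are lowest in the pellets without PEG and highest with PEG, and PSME4 is lowest with PEG. PSME3 has its lowest mean with PEG, where its libraries overlap those of the other pellets. The replicates of PSMD2 spread more than its groups, and PSMA5 is lowest with dsRNA.

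The 8 CCT subunits are present in equal numbers in the assembled chaperonin. All 8 had negative log2 fold changes in mock pellets, from -0.86 for CCT5 to -0.43 for CCT8, of which CCT5, CCT6A and CCT7 were called. All 8 were called with the replicate block there, and all 8 were called lower with dsRNA and with silvestrol. With PEG 6 were higher than input, CCT6A (0.42, edgeR adjusted p = 0.0600; 0.0423 with the block) and TCP1 (0.17, edgeR adjusted p = 0.534) were not called, and all 8 were higher than in mock. CCT7, the most abundant, read 764, 606 and 616 CPM in input, 492, 367 and 342 CPM in mock, 469, 348 and 329 CPM with dsRNA, 447, 366 and 393 CPM with silvestrol, and 1151, 1141 and 1114 CPM with PEG. Its log2 fold change was -0.69 in mock (SE 0.177, edgeR adjusted p = 0.0223), 0.82 with PEG (SE 0.152, edgeR adjusted p = 0.00236), and 1.57 between PEG and mock (SE 0.170, edgeR adjusted p = 3.71e-05). CCT5 had the largest difference between PEG and mock, 1.70, and TCP1 the smallest, 0.98. An antisense gene with 95 counts overlaps 30.1% of the exon bases of CCT5.

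Per kilobase of exon, the CCT mRNAs were unequal in every group. The length used was that of all annotated exons of the gene, and the order and shares below depend on it. It was 4018 nt for CCT3 and 2830 nt for CCT4, while their longest coding transcripts were 2150 and 2520 nt. With input means of 425 CPM for CCT3 and 341 CPM for CCT4, CCT3 would stand above CCT4 on the transcript lengths. In input CCT7 stood at 184 ± 24.7 CPM per kb (SD, n = 3), CCT8 at 152 ± 14.1, CCT6A at 149 ± 27.5 and CCT4 at 120 ± 26.6. CCT3 followed at 106 ± 17.6, then TCP1 at 63.1 ± 19.1, CCT5 at 62.4 ± 12.7 and CCT2 at 46.04 ± 11.1. Neighbours in this order differed by more than either SD between CCT7 and CCT8, CCT6A and CCT4, CCT3 and TCP1, and CCT5 and CCT2, and by less between CCT8 and CCT6A, CCT4 and CCT3, and TCP1 and CCT5. As shares of the 8, CCT6A made up 16.9 ± 0.377% in input, 17.1 ± 0.306% in mock and 13.6 ± 0.207% with PEG, and the PEG libraries (13.5 to 13.9%) lay below all inputs (16.5 to 17.2%). TCP1 made up 7.05 ± 0.851% in input and 4.84 ± 0.178% with PEG. CCT3 rose from 12.0 ± 0.143% in input to 13.1 ± 0.259% in mock and 14.9 ± 0.222% with PEG, and CCT5 went from 7.04 ± 0.194% in input to 5.79 ± 0.255% in mock and 7.27 ± 0.137% with PEG. These shares were given no test. Reads of CCT6A could be divided with its pseudogene CCT6P1, which held 3910 counts against 235995.

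**Figure D4:**
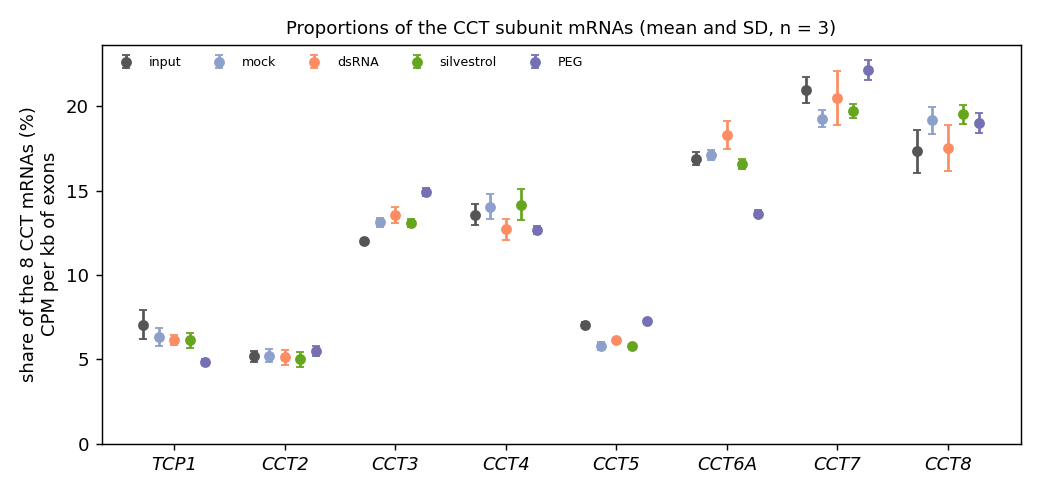
Share of each of the 8 CCT mRNAs in their sum, from CPM per kilobase of exon, in each group (mean and SD, n = 3). CCT7 is the largest share in every group. With PEG the mean shares of CCT6A, TCP1 and CCT4 are the smallest of their 5 groups, and those of CCT2, CCT3, CCT5 and CCT7 the largest. Only for CCT6A, TCP1 and CCT3 do the PEG libraries lie outside those of every other group.

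Between the pellets without PEG the members differed little. By edgeR 0 of the 54 were called between dsRNA and mock, silvestrol and mock, or dsRNA and silvestrol, where 0% of all genes were called in any of them, and the members' medians were -0.07, -0.05 and -0.03. At an unadjusted p below 0.05 there were 2, 0 and 3 members, where 2.25%, 0.211% and 1.99% of all genes were. DESeq2 called 1, 0 and 1, against 0.385%, 0% and 0.409% of all genes. With the replicate block edgeR called 5 lower between dsRNA and mock, where 2.65% of all genes were lower, 0 between silvestrol and mock, where 0.0120% were called, and 5 lower between dsRNA and silvestrol, where 2.49% were. They were PSMA5, PSMD14, PSMD13, CCT4 and CCT8 in both, named after their values were seen, and the 2 comparisons share the dsRNA libraries.

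PSMA5, an alpha subunit of the 20S core, stood apart from the other 6 in its ring. It read 256, 162 and 168 CPM in input, 286, 241 and 172 CPM in mock, 127, 87.0 and 87.9 CPM with dsRNA, 217, 210 and 169 CPM with silvestrol, and 375, 389 and 354 CPM with PEG. All dsRNA libraries lay below all libraries of every other group, the mock and silvestrol libraries overlapped the inputs, and all PEG libraries lay above the rest. Its log2 fold changes against input were 0.29 in mock (edgeR adjusted p = 0.382; 0.0114 with the block), -0.92 with dsRNA (edgeR adjusted p = 0.0149), 0.06 with silvestrol and 0.97 with PEG (edgeR adjusted p = 0.00391). Directly between dsRNA and mock it was -1.22 (SE 0.223), with an unadjusted p of 0.000826 and an edgeR adjusted p of 0.549. With the replicate block it was -1.21 (SE 0.0696, edgeR adjusted p = 8.99e-18), and the DESeq2 adjusted p was 0.000284. Between dsRNA and silvestrol it was -0.98 (SE 0.175, edgeR adjusted p = 0.602), and with the block -0.99 (edgeR adjusted p = 1.95e-12). Blocked SE and adjusted p values, here and for other genes, are moderated with a dispersion shared over genes. They do not rest on the spread of PSMA5 between its own replicate pairs alone, and cannot be read as a measure of that spread.

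The other 4 differed less. PSMD14 was -0.39 between dsRNA and mock with the block (SE 0.0730, edgeR adjusted p = 0.000269), CCT4 -0.30, PSMD13 -0.29 and CCT8 -0.29. CCT8 read 313, 289 and 298 CPM with dsRNA, 425, 342 and 337 CPM in mock, and 398, 354 and 355 CPM with silvestrol, so that its dsRNA libraries lay below all of the others.

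Members of long transcripts differed from those of short ones with PEG. The longest coding transcript annotated for a member had a median of 1972.5 nt, against 3049 nt over the genes tested. Across the 54 members, Spearman's rho between that length and the difference between PEG and mock was -0.63. Across 16529 genes it was -0.59. Against input with PEG the values were -0.54 and -0.58, and in mock against input they were 0.20 and 0.23. Genes are not independent replicates, the members of a comparison share their libraries, and these values are descriptions.

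Within classes of length the members differed from all genes of the class in their medians. These classes do not hold length constant, since the last has no upper limit. The longest annotated transcript also need not be the one present in the extract. Of 28 members under 2000 nt, 28 were higher with PEG than in mock, with a median of 1.62, where 61.9% of the 4638 genes of that length were higher and the median was 0.86. Of 11 members from 2000 to under 3000 nt, 11 were higher, with a median of 1.33, where 37.8% of 3487 genes were. Of 15 members of 3000 nt and over, 10 were higher and 1 lower, with a median of 0.99, where 11.9% of 8404 genes were higher and 53.1% lower, with a median of -0.49. In mock against input the long members had a median of -0.67, where the genes of that length had 0.11. PSME4, PSMD2, PSMD5 and PSME3, the members with the lowest differences between PEG and mock, all had transcripts of 3000 nt and over. The GC content of the transcripts had a median of 48.5% in the members and 49.2% in the genes tested.

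Genes that work with the proteasome were mixed. Of 20 partners, such as receptors, shuttle factors and assembly factors, 11 were lower and 1 was higher in mock. With dsRNA 12 were lower and 1 higher, with silvestrol 10 and 1, and with PEG 8 and 5. Against mock, 8 were higher and 5 lower with PEG. Of all genes, 15.8% were lower and 17.6% higher in mock, 19.6% and 21.1% with dsRNA, and 18.1% and 19.4% with silvestrol. With PEG 25.9% were lower and 25.5% higher than input, and 31.3% were higher and 32.2% lower than in mock. The block gave 12 lower and 3 higher in mock, 12 and 2 with dsRNA, and 12 and 2 with silvestrol. Of all 16612 genes it gave 5003 lower and 5404 higher in mock, 4839 and 5147 with dsRNA, and 4764 and 5109 with silvestrol. POMP, the 20S maturation factor, was -1.01 in mock and 0.87 with PEG, and SEM1, a small 19S subunit outside the naming rule, was -0.59 and 1.73. NFE2L1, the transcription factor that induces proteasome genes, was higher in mock by 0.62 (edgeR adjusted p = 0.0111), with dsRNA by 0.79 and with silvestrol by 0.75, and was lower with PEG than in mock (-0.87, edgeR adjusted p = 0.000219). Of 12 measured partners of CCT, among them the prefoldin subunits that hand over substrates, 8 were lower in each of mock, dsRNA and silvestrol. With PEG 7 were higher and 1 was lower than input, and 11 were higher and 1 lower than in mock. The shares of all genes in these comparisons are those given above. PFDN6 was -0.47 in mock and 1.72 with PEG, and BBS10 was the 1 that was lower with PEG, at -0.79.

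The mitochondrial chaperonin HSPD1 and its cochaperonin HSPE1 differed with PEG. HSPD1 was at -0.002 against input and HSPE1 at 1.58 (edgeR adjusted p = 0.000706), and neither was called in mock, where both were lower with the replicate block. The nuclear gene PSMC3IP, which shares the letters of the naming rule but encodes a recombination factor, was not called against input in any pellet and was 0.63 higher with PEG than in mock (edgeR adjusted p = 0.00881).

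Promoters of 3 members are shown as genomic context for the ends of the range: PSMB3 had the largest rise between PEG and mock, PSME4 was the 1 member that was lower there, and PSMA5 was the member set apart with dsRNA. They were chosen after the values were seen. The 250 bases before and 50 after each start are RefSeq's on GRCh38.p14, 5′ to 3′ on the strand of the gene: PSMB3 at chr17:38752491-38752790 on the plus strand, PSMA5 at chr1:109426399-109426698 and PSME4 at chr2:53970944-53971243 on the minus strand. Capitals mark TGACNNNGC, the core of the antioxidant response element that NFE2L1 and related factors bind, and CCAAT, the box bound by NF-Y, each on either strand.
PSMB3: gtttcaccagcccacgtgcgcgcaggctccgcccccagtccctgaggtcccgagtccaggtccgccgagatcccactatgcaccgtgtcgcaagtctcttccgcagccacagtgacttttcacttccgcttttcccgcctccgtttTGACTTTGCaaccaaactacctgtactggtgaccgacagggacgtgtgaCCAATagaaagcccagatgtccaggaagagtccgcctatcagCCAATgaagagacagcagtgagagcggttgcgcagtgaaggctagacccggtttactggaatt
PSMA5: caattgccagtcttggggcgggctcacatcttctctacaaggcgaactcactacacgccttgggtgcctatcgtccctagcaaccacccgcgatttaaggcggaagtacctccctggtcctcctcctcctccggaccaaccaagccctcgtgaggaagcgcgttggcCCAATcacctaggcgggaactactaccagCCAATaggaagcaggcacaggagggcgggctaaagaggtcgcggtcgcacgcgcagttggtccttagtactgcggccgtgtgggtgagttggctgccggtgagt
PSME4: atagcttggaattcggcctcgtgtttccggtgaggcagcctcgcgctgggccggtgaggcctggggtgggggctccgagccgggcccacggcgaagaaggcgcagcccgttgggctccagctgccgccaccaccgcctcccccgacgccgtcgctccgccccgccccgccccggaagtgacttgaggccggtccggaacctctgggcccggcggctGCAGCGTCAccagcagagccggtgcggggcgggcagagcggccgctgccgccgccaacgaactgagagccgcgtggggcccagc

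PSMB3 has 1 match to TGACNNNGC and 2 to CCAAT, PSMA5 has 2 to CCAAT, and PSME4 has 1 to TGACNNNGC on the other strand. Of 47 members with a promoter in the RefSeq table, 14 held TGACNNNGC (29.8%), against 13.6% of 27305 genes, and 22 held CCAAT (46.8%), against 35.7%. By complex these were 13 of 40 and 18 of 40 proteasome genes, and 1 of 7 and 4 of 7 CCT genes. A match is a run of letters and not a bound site, and the pellets measured an mRNA's share of the sedimented RNA and not its transcription. PSMB3 spans chr17:38752736-38764231, PSMA5 chr1:109399031-109426427 and PSME4 chr2:53864067-53970840 in GENCODE 29 on GRCh38.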

How the data were processed

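U2OS extract and pellets were sequenced as poly(A) RNA, 3 biological replicates in each of 5 groups. For every library the authors deposited a table of raw counts of reads assigned to genes, not normalised. Their processing notes name Trimmomatic 0.36, STAR 2.5.2b, featureCounts from Subread 1.5.2 and the build GRCh38. The annotation release and strand setting are not given in the sources used here. The study's account of its RNA sequencing speaks of YFP-G3BP1 condensates from U2OS extract, whereas these samples are labelled wild type. Whether the extract came from cells with tagged G3BP1 cannot be told from these sources.

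Gene symbols, types and lengths were taken from GENCODE 29 (56898 of 57500 identifiers matched). Counts were tested with edgeR 4.0.16 in R 4.3.3 (TMM, quasi-likelihood F test, prior count of 2 in fold changes) on the 6 libraries of each comparison, over 16612 genes, with Benjamini-Hochberg adjustment and a threshold of 0.05. The study's methods name DESeq2, which was an alternative here (1.42.0). With 3 against 3 libraries an exact permutation p cannot fall below 0.1. The fit was tested on simulated data before use. Total counts were 15341973 to 46939993 per library, and low members carry the larger relative counting error.

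Deviations from the group means correlated between every pair of same-numbered libraries (30 pairs, r from 0.131 to 0.861, against -0.746 to 0.583 in other pairs). Replicate 1 stood apart, while replicates 2 and 3 also correlated across numbers. Input 2 correlated at 0.583 with both mock 2 and mock 3, and mock 2 at 0.649 with dsRNA 2 and 0.539 with dsRNA 3. Same-numbered pairs with PEG reached 0.358 at most, and dsRNA 2 correlated at 0.132 with PEG 2 and 0.139 with PEG 3. The pairing was thus weakest for PEG, where blocked values rest on it least firmly. Deviations from a group's mean cancel within the group, so negative values in other pairs are partly forced. The replicate number was taken to pair the samples, although these values set replicates 2 and 3 apart weakly or not at all. The blocked value is given beside results whose call it changed or whose count it moved by over 1.5 times. Its SE and p are moderated with a dispersion shared over genes. Other alternatives were other size factors, filters, a joint fit, a GC correction, thinned libraries and leaving out each library.

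The members and gene lists were chosen with earlier results of these data known. The genes named with statistics were, in each role group, the most abundant in input, and in each comparison with calls the 3 highest and 3 lowest log2 fold changes. Other members named with statistics in their role group, such as PSMC1, PSMD4, PSMD11, PSMB10 and TCP1, were chosen after their values were seen. PSMC3IP, a recombination factor, and CCT6B, which the rule does not list, were not members. Of the members, 26 share exon bases with another gene, 6 of them over 20% of their own (PSMC1, PSMB10, PSMD7, CCT5, PSMA1 and PSMB8). The 46 pseudogenes named after members held 0.145% as many counts as the members. Figures were drawn with matplotlib 3.10.9.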

Additional observations from a re-analysis of the deposited data

Results flagged for a closer look

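The count of 21 members called lower than input in mock pellets and higher in PEG pellets, and higher in PEG than in mock by the direct test, stands out because the same mRNAs went opposite ways under contrasts with the same input. The difference itself was tested between PEG and mock, but members picked as below input in mock and above it with PEG were nearly bound to pass. The direct test therefore adds no separate support for these members. A share of all genes was taken only for the condition that adds dsRNA and silvestrol, and was 5.69%.

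With the replicate block, 5 members were lower in dsRNA pellets than in mock, so that their changes from input differed between the pellets: PSMA5 by -1.21, PSMD14 by -0.39, CCT4 by -0.30, PSMD13 by -0.29 and CCT8 by -0.29 on the log2 scale. The same 5 were lower in dsRNA than in silvestrol pellets, PSMA5 by -0.99, PSMD14 by -0.39, CCT8 by -0.29, CCT4 by -0.29 and PSMD13 by -0.26. Without the block none of these passed in edgeR, with 2 and 3 members at an unadjusted p below 0.05, and DESeq2 called PSMA5 in both.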

How the results depend on the processing

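Members lower than input in mock pellets were 27, and 41 with no filter on low counts, 47 with the replicate block, 49 with the block and a GC correction and 48 with the block and thinned libraries. Members higher there were 0, and 1, 2 and 1 under those 3 settings with the block; in silvestrol the block with a GC correction gave 2. Leaving out single libraries gave 8 to 42 in mock (42 without mock replicate 1, 9 without replicate 2, 8 without replicate 3), 22 to 46 with dsRNA (22 without dsRNA replicate 2 or 3) and 19 to 40 with silvestrol (19 without silvestrol replicate 2, 20 without replicate 3). Members lower with PEG than input were 2, and 1 with a GC correction, with or without the block, and 4 with library size only; lower with PEG than mock were 1, and 2 with library size only. Between dsRNA and mock, 0 lower became 1 with DESeq2 or no filter, 5 with the block, 7 with the block and a GC correction and 5 with the block and thinned libraries; between dsRNA and silvestrol the counts were 1, 1, 5, 5 and 7. The 21 members that went opposite ways were 35 with the block, 40 with a GC correction added and 34 with thinning added. The replicate block moved no other of these counts over all 54 members by more than 1.5 times. It also raised the share of all genes called lower in mock from 15.8% to 30.1%. Shares of all genes were not taken without the filter, with a GC correction or with thinned libraries. Changes in the counts under those settings therefore cannot be told from changes over all genes.

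Signs turned only for members that were not called in the comparison. With a GC correction, alone and then with the block, PSMG4 in mock was -0.014 and -0.011, PSMD2 with dsRNA -0.091 and -0.10, PSME4 with dsRNA 0.11 and 0.11, PSMF1 with PEG 0.033 and 0.039, and PSMD5 between PEG and mock 0.043 and 0.055 (0.012 with the filter in 1 condition). PSMG4 with silvestrol, 0.0040, was -0.00712 with DESeq2, -0.00530 with its size factors, -0.13 with a GC correction, -0.12 with the block added, -0.028 in a joint fit, -0.031 with the filter in 1 condition, -0.026 thinned, -0.029 thinned with the block and -0.037 without a filter. With library size only, values against input with PEG were -0.066 for PSMD10, -0.17 for PSMD12, -0.091 for PSMD14, -0.20 for PSMD2 (-0.053 with a GC correction), -0.042 for PSMD7 and -0.16 for TCP1. PSMD2 between PEG and mock was 0.021 with the filter in 1 condition, 0.037 with the block and 0.044 with the block and thinning. Leaving out single libraries, PSMD2 ranged from -0.14 to 0.47 in mock, -0.23 to 0.42 with dsRNA, -0.083 to 0.50 with silvestrol, -0.035 to 0.43 with PEG and -0.19 to 0.34 between PEG and mock. PSMA5 with silvestrol ranged from -0.10 to 0.28, PSMG4 with silvestrol from -0.093 to 0.079, PSMB5 in mock from -0.16 to 0.00460, PSMD11 with PEG from -0.36 to 0.16 and PSMF1 with PEG from -0.13 to 0.095. PSME4 ranged from -0.00657 to 0.25 in mock, -0.18 to 0.038 with dsRNA and -0.036 to 0.23 with silvestrol, and between PEG and mock PSMD5 ranged from -0.16 to 0.17 and PSME3 from -0.28 to 0.058. The cause of these changes was not tested.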
